A study of Mus musculus with 4 samples.

Results

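The AP-1 and immediate early genes described here are *Fos*, *Fosb*, *Fosl1*, *Fosl2*, *Jun*, *Junb*, *Jund*, *Egr1*, *Atf3* and *Ier3*, taken by symbol from the deposited table of expression values. They are 10 of the 45802 gene symbols in that table, and all 10 had a value in each of the 4 libraries. All but *Ier3*, an early gene of another kind, encode transcription factors. The rule that picks them from the table is the symbol alone.

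Total RNA was sequenced from cultured periosteal cells, the cells of the outer covering of bone, in 2 PDGFRα reporter+ and 2 PDGFRα reporter- libraries. All 4 libraries came from male PDGFRα-mTmG mice 9 to 10 weeks old, which carry a tamoxifen-inducible Cre under the *Pdgfra* promoter and a membrane reporter that turns from tdTomato to GFP after recombination. The animals of both populations had received 5 daily doses of tamoxifen (150 mg/kg), and the hindlimb cells were taken 14 days later and expanded for 1 passage with 10 ng/mL bFGF and serum. Cells negative for CD31, CD45 and Ter119 were then sorted into GFP-positive (PDGFRα reporter+) and tdTomato-positive (PDGFRα reporter-) fractions, each library from the pooled cells of 3 to 6 mice per the labels. The reporter marks cells in which the promoter was active at the time of tamoxifen, and not the receptor at the time of the sort. *Pdgfra* itself had log2 values of 7.78 and 7.62 in PDGFRα reporter+ against 7.87 and 7.44 in PDGFRα reporter-, and the populations therefore overlapped in the transcript. Table headings distinguish the libraries of 1 population by the numbers 2 and 3, and what the numbers stand for is not given in the sources used here. The libraries are named by population and number below.

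AP-1 is a dimer of basic leucine zipper proteins, in which a FOS family member pairs with a JUN family member, or JUN proteins pair with each other, to bind DNA. *Fos*, *Fosb*, *Jun*, *Junb*, *Egr1*, *Atf3* and *Ier3* belong to the immediate early genes, whose transcription starts within minutes of a growth factor, serum or stress signal without new protein synthesis. MAP kinases reach these genes through the serum response factor, its ELK partners and CREB-type factors, and ERK signaling also stabilizes several FOS proteins. In bone, AP-1 is known for its part in osteoblast and osteoclast differentiation, and *Fosl1* and *Fosl2* for matrix production by osteoblasts.

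The sequences before the start sites are shown because most members moved together between the libraries, as given below, and the stretch before a start site is where sites for such signals are commonly described. Windows of 300 bases (250 before and 50 after the start) were found in RefSeq (GRCm38.p6) for 8 of the 10 members, which leaves out *Fosl1* and *Egr1*. A RefSeq start need not be the outermost start of the GENCODE gene printed below. The 2 starts coincided for *Fos* and *Jun* and lay 6 to 30 bases apart for *Fosb*, *Ier3* and *Junb*, whereas the RefSeq start lay 671 bases inside the gene for *Fosl2*, 34706 bases inside it for *Atf3* and 1210 bases before it for *Jund*. The motif counts refer to the RefSeq starts, 1 per gene. For 1 member of each role with a window, the 250 bases before the start are printed 5′ to 3′ on the strand of the gene, with every match to a searched motif in capitals. They lie at chr12:85473640-85473889 on the plus strand (*Fos*), chr4:95052223-95052472 on the minus strand (*Jun*), chr1:191183334-191183583 on the minus strand (*Atf3*) and chr17:35821463-35821712 on the plus strand (*Ier3*).
Fos: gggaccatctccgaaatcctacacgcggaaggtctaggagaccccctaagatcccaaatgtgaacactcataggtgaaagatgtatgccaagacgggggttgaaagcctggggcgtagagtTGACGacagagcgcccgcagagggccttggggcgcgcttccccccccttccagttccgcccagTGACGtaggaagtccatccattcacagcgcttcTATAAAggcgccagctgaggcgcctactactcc
Jun: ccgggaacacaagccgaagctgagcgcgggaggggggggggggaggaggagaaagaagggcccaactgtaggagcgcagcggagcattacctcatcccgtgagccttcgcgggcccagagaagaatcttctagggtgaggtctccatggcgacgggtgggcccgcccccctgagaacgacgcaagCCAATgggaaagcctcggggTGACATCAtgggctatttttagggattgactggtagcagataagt
Atf3: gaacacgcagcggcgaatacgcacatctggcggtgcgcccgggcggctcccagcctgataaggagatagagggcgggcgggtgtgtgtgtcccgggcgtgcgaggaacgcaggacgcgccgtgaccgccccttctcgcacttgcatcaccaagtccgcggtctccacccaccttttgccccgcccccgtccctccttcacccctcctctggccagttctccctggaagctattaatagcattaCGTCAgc
Ier3: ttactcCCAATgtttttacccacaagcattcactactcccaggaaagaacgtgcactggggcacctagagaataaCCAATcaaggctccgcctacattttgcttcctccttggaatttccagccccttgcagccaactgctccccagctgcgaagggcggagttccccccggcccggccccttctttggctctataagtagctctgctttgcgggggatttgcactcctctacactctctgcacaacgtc

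Both strands of each window were searched for 8 motifs, of which TGACGTCA includes the shorter TGACG. The core of the cAMP response element, TGACG, was found in the windows of *Fos*, *Fosb*, *Junb* and *Atf3*, 4 of 8, and in 20.8% of all 32851 windows of this length. In *Fos* it lay at -129 to -125 and again at -66 to -62, and in *Atf3* at -7 to -3 on the opposite strand. The variant TGACATCA, a site of the kind JUN and ATF2 bind, was found in *Jun* alone among the members, at -45 to -38, and in 3.62% of all windows. GCGNGGGCG, the binding site of EGR1, was found in *Fosb* and *Fosl2* and in 5.55% of all windows. TATAAA was found in *Fos*, at -33 to -28, and in *Junb*, at positions 1 to 6 after the RefSeq start, and in 13.6% of all windows. CCAAT was found in *Jun*, *Junb*, *Atf3* and *Ier3* and in 37.4% of all windows, and in *Atf3* it lay after the start, beyond the printed bases. Full TGACGTCA (1.79% of all windows), the AP-1 site TGANTCA (7.81%) and the CArG box of the serum response factor (1.63%) had no match in the members' windows, which says only that these letters are not in these windows.

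No member passed the test for PDGFRα reporter+ against PDGFRα reporter- (limma, threshold of 0.05 on the adjusted p), and the same held for all 14415 genes with a value in every library (0 called, 0% of genes, with 131 at an unadjusted p under 0.05, none of them a member). Between the libraries of 1 population, by contrast, 10 of 10 members were lower in both number 3 libraries than in both number 2 libraries, a pattern found in 28.8% of all genes tested, and 8 of the 10 passed the test for a lower value in number 3, against 9.79% of all genes tested. The plot of the members in the 4 libraries shows both.

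**Figure D1:**
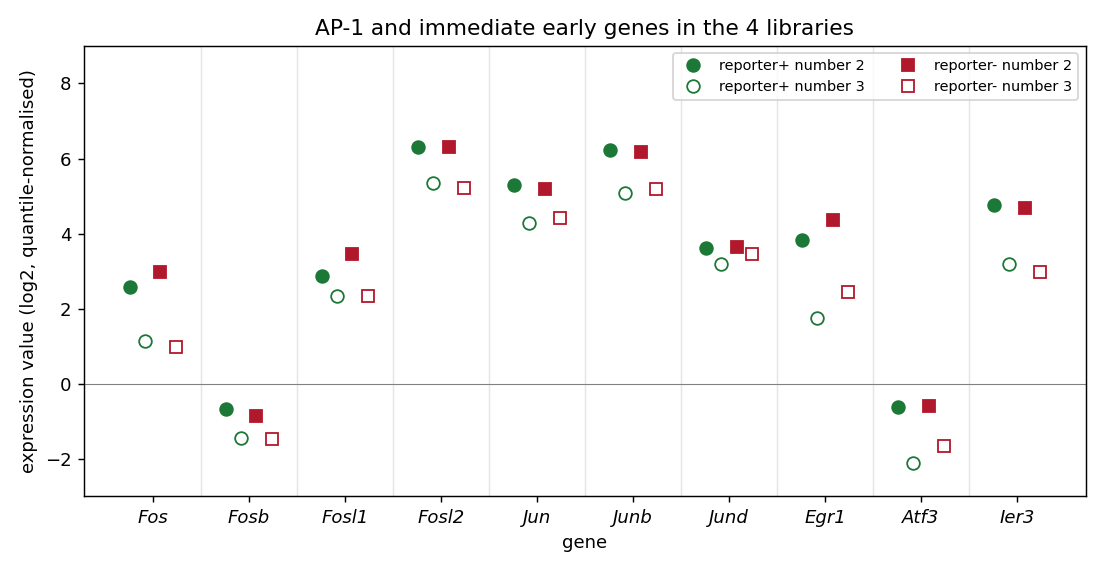
Log2 expression values (vertical axis, quantile-normalised) of the 10 genes (horizontal axis) in the 4 libraries, 1 point for each library. Filled points (number 2) lie above open points (number 3) for every gene. Circles (PDGFRα reporter+) and squares (PDGFRα reporter-) overlap in range for every gene, and within 1 number they lie farthest apart for *Egr1* in number 3 (-0.70) and *Fosl1* in number 2 (-0.60).

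Of the FOS family, *Fos* (chr12:85473890-85477273, GRCm38), the founding member and a short-lived partner of JUN, varied the most. Its log2 values were 2.57 in PDGFRα reporter+ number 2, 2.98 in PDGFRα reporter- number 2, 1.13 in PDGFRα reporter+ number 3 and 0.97 in PDGFRα reporter- number 3. Both number 3 libraries lay more than 1 log2 unit below both number 2 libraries, and the populations overlapped. Number 3 was lower by a log2 difference of -1.72 (SE 0.18, limma adjusted p = 0.000337), which is 3.30-fold, or 2.71-fold within PDGFRα reporter+ and 4.01-fold within PDGFRα reporter-.

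*Fosl1* (chr19:5447547-5455946), which encodes FRA-1, had values of 2.86 and 3.47 in the number 2 libraries (PDGFRα reporter+ and then PDGFRα reporter-) and of 2.34 and 2.32 in the number 3 libraries. PDGFRα reporter- number 2 stood highest, and the number 3 libraries were nearly level. The log2 difference between the numbers was -0.83 (SE 0.17, limma adjusted p = 0.00854). *Fosl2* (chr5:32135801-32157842), which encodes FRA-2, had values of 6.30 and 6.30 in number 2 and of 5.34 and 5.20 in number 3. Here the populations were level in number 2, and number 3 was lower by a log2 difference of -1.03 (SE 0.12, limma adjusted p = 0.000543). *Fosb* (chr7:19302696-19310051), the source of FOSB and its truncated form ΔFOSB, had negative log2 values, of -0.67 and -0.87 in number 2 and of -1.44 and -1.48 in number 3. It was ordered by number like the others, but its log2 difference of -0.69 (SE 0.31) did not pass the test (limma adjusted p = 0.149).

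Of the JUN family, *Jun* (chr4:95049034-95052222), the main FOS partner, had values of 5.30 and 5.20 in number 2 (PDGFRα reporter+ and then PDGFRα reporter-) and of 4.28 and 4.41 in number 3. *Junb* (chr8:84974484-84978718), a weaker activator that competes with JUN, had values of 6.22 and 6.17 in number 2 and of 5.09 and 5.19 in number 3. For both genes the populations were close within each number, and number 3 lay below number 2 without overlap. Log2 differences between the numbers were -0.90 (SE 0.12, limma adjusted p = 0.00112) for *Jun* and -1.05 (SE 0.12, limma adjusted p = 0.000497) for *Junb*. *Jund* (chr8:70698949-70700616), the JUN member known for steady expression in resting cells, had values of 3.61 and 3.63 in number 2 and of 3.19 and 3.46 in number 3. Its log2 difference of -0.29 (SE 0.13) was the smallest of the 10 and did not pass the test (limma adjusted p = 0.138).

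*Egr1* (chr18:34859823-34864984), a zinc finger factor of the serum response, had the largest difference between the numbers among the members. Its values were 3.84 and 4.37 in number 2 (PDGFRα reporter+ and then PDGFRα reporter-) and 1.75 and 2.46 in number 3. Number 3 was lower by a log2 difference of -2.00 (SE 0.13, limma adjusted p = 2.80e-05), which is 4.01-fold. *Egr1* was also the member with the largest difference between the populations, with PDGFRα reporter- above PDGFRα reporter+ in both numbers.

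*Atf3* (chr1:191170296-191218039), a stress-induced bZIP factor that often represses, had values of -0.63 and -0.59 in number 2 and of -2.11 and -1.66 in number 3. Number 3 was lower by a log2 difference of -1.28 (SE 0.32, limma adjusted p = 0.0229), with the largest adjusted p of the 8 that passed. *Ier3* (chr17:35821684-35822923), which modulates survival and ERK signaling, had values of 4.75 and 4.69 in number 2 and of 3.20 and 2.97 in number 3. The populations were close in each number, and number 3 was lower by a log2 difference of -1.64 (SE 0.12, limma adjusted p = 5.22e-05), or 3.11-fold.

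Over the 10 members, the median log2 difference of number 3 from number 2 was -1.04, with a range from -2.00 to -0.29, whereas the median over all genes tested was 0.05. Of the 10 differences, 6 were below -1, as were those of 6.94% of all genes tested. In 10 of 10 members the difference between the numbers was larger in size than that between the populations, which was also so for 75.7% of all genes tested. The p-values for the number rest on 1 library of each population per number. They measure only the spread of the number difference between the populations, drawn toward a variance trend over all genes tested. Without a trend of variance in the model, 0 of the 10 members passed, with limma adjusted p-values from 0.0545 to 0.150 for the 8, and *Fosl1* also missed the threshold with a pseudocount of 1 (0.0589) or without population as a term (0.0561). Whether same-numbered libraries share a preparation of cells is not given in the sources used here. In these bulk libraries, fewer cells that express a gene cannot be told apart from less RNA in each cell.

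Other lists of the pathway were drawn up from general knowledge, but with earlier results of these data known. Their calls between the numbers, like those of the members, rest on the variance trend, since 0 of the 14415 genes passed without it, and their counts are to be read against 9.79% of all genes tested called lower and 11.5% called higher. Of 35 other immediate early and primary response genes, 33 had a value in all 4 libraries, of which 12 were lower and 1 was higher in number 3 by the test, and 20 did not pass. Their median log2 difference was -0.42, and both number 3 libraries lay below both number 2 libraries for 20 of the 33 and above for 7, against 28.8% and 36.4% of all genes tested. Genes chosen from this list after their values were seen were *Dusp1*, a phosphatase of MAP kinases (log2 difference -2.47, limma adjusted p = 2.5e-05), *Sgk1*, a serum-induced kinase (-1.83), *Zfp36*, which destabilizes AU-rich mRNAs (-1.40), and *Ier2* (-1.20). *Ctgf*, a matricellular growth factor, was the gene of the list that was higher in number 3 by the test, with values of 3.44 and 4.11 in number 2 and of 4.96 and 4.96 in number 3. *Egr2* and *Egr3*, relatives of *Egr1*, had log2 differences of 1.21 (adjusted p = 0.12) and 1.01 (adjusted p = 0.06), neither of which passed the limma test. Both genes had negative log2 values in all 4 libraries, from -4.27 to -1.97 for *Egr2* and from -2.31 to -0.38 for *Egr3*.

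**Figure D2:**
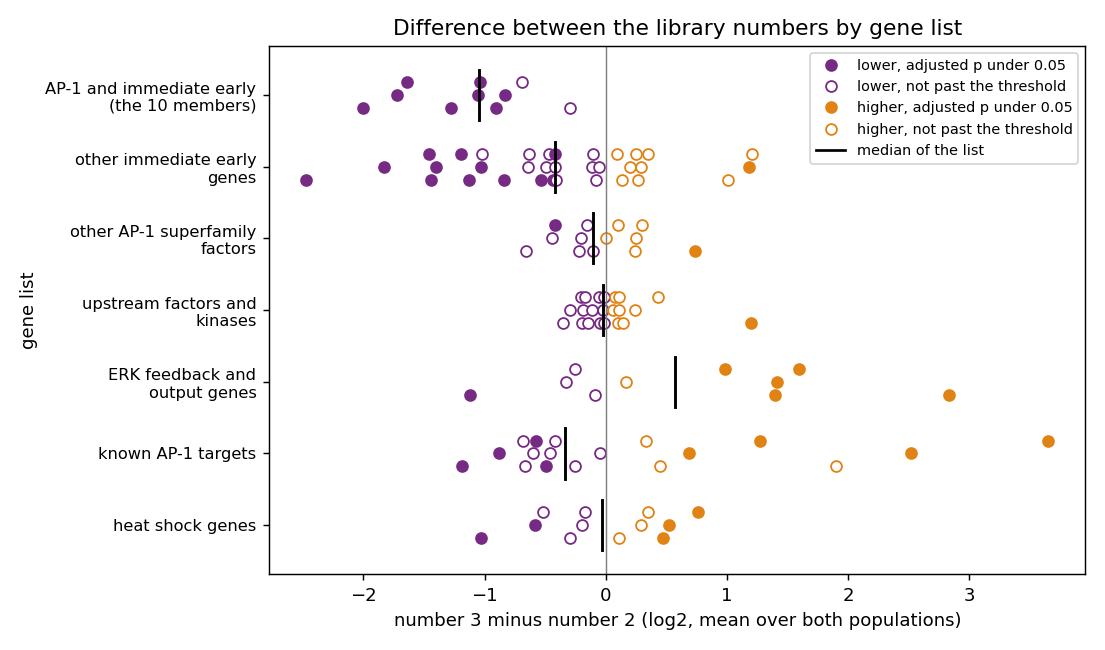
Log2 difference of number 3 from number 2, averaged over both populations (horizontal axis), for each gene of 7 lists (vertical axis), with filled points past the limma threshold and a black line at the median of each list. The 10 members lie below 0, whereas 6 of the 10 ERK feedback genes lie above 0 and the median of the upstream factors is -0.02.

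Of 22 upstream factors and kinases, *Srf*, the ELK genes and the MAP kinases among them, 0 were lower and 1 was higher in number 3 by the limma test, against 9.79% and 11.5% of all genes tested, and the median log2 difference was -0.02. The gene that passed was *Rps6ka1*, a kinase downstream of ERK, with a log2 difference of 1.20 (limma adjusted p = 0.00839). The 13 other bZIP genes of the AP-1 superfamily with values in all 4 libraries had 1 lower (*Nfe2l2*, -0.42) and 1 higher (*Atf5*, 0.74) by the test, with a median of -0.11.

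Feedback and output genes of ERK were divided between directions. Of these 10, 5 were higher in number 3 by the test and 1 was lower, against 11.5% and 9.79% of all genes tested, while 4 did not pass, and the median log2 difference was 0.57. *Spry1*, an inhibitor of receptor tyrosine kinase signaling, had values of -2.72 and -1.20 in number 2 (PDGFRα reporter+ and then PDGFRα reporter-) and of 0.89 and 0.85 in number 3. *Dusp4* (1.59), *Spry4* (1.41), *Etv4* (1.40) and *Etv5* (0.98) were the others that were higher by the test. The lower one was *Dusp5*, a nuclear ERK phosphatase (-1.12).

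Known AP-1 targets were divided. Of 18 genes, 4 were lower and 4 were higher in number 3 by the test (9.79% and 11.5% of all genes tested), and 10 did not pass, with a median log2 difference of -0.33. *Mmp3*, a matrix metalloproteinase, had values of 6.73 and 4.82 in number 2 (PDGFRα reporter+ and then PDGFRα reporter-) and of 10.49 and 8.37 in number 3, so that it was higher where the FOS and JUN genes were lower (log2 difference 3.65, limma adjusted p = 3e-06). *Mmp13*, the collagenase of hypertrophic cartilage and osteoblasts, had 5.06 and 3.88 in number 2 and 6.34 and 5.15 in number 3. *Mmp10* (2.52) and *Hmox1* (0.69) were also higher, and *Plaur* (-1.18), *Tgfb1* (-0.88), *Cd44* (-0.58) and *Plau* (-0.49) were lower.

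Markers of other cells and of RNA state moved with the number in part. Summed over 12 macrophage markers on the linear scale, levels in number 2 were 245.5 (PDGFRα reporter+) and 98.0 (PDGFRα reporter-), and those in number 3 were 286.4 and 183.9, with 6 of 11 markers higher in number 3 by the test (11.5% of all genes tested), although cells bearing CD45 were gated out. In this unstated unit the sums were mostly *Lyz2*, a lysozyme (78.6% to 82.9%), and without it they were 45.0 and 21.0 in number 2 and 51.3 and 31.4 in number 3. The sum over 5 smooth muscle markers was 6.12 and 22.0 in number 2 and 24.9 and 37.8 in number 3, with 2 of 5 higher by the test. The 7 endothelial markers had sums between 1.39 and 3.95, with *Erg* lower (-3.03) and *Tek* higher (3.32) in number 3 by the test, and *Pecam1*, which encodes the gated CD31, had log2 values from -4.79 to -1.11. Of the T cell, B cell, neutrophil and erythroid markers, 4 genes each, none had a value in all 4 libraries, and *Cd3e*, *Ms4a1*, *S100a9* and *Hbb-bs* had none in any library. The neutrophil gene *S100a8* had -4.21 in PDGFRα reporter+ and no value in PDGFRα reporter- of number 2, and 1.39 and -1.14 in number 3, and the neutrophil sums were 0.054 and 0.053 in number 2 and 2.67 and 0.478 in number 3. The 10 stromal markers gave sums between 1265 and 1639. By the test, 3 were lower and 1 (*Postn*, a periosteal matrix protein) was higher in number 3, and 6 did not pass (9.79% of all genes tested were called lower and 11.5% higher). Among 12 heat shock genes, 2 were lower and 3 higher by the test (median log2 difference -0.03), the lower being *Hspb1* (-1.03) and *Hspa1b* (-0.59). Neither of the 2 mitochondrial symbols had a value. The part of these cells and states in the members' values was not tested.

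Turning to the comparison for which the cells were sorted, PDGFRα reporter+ against PDGFRα reporter-, 3 of the 10 members were higher and 7 were lower on average in PDGFRα reporter+, with a median log2 difference of -0.07 (-0.00 over all genes tested). The populations overlapped for all 10, whereas both PDGFRα reporter+ libraries were above both PDGFRα reporter- libraries for 7.59% of all genes tested and below them for 8.1%. An exact two-sided test of 1 gene on these libraries could not give a p below 0.33.

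Within the numbers, PDGFRα reporter+ was higher in both for 3 members (*Fosb*, *Fosl2* and *Ier3*, against 22.1% of all genes tested) and lower in both for 3 (*Jund*, *Egr1* and *Atf3*, against 24.8%). *Egr1* was lower in PDGFRα reporter+ by log2 differences of -0.53 in number 2 and -0.70 in number 3, with a mean of -0.62 (SE 0.96, limma adjusted p = 1). *Atf3* was lower by -0.04 and -0.45, and *Jund* by -0.02 and -0.27, in numbers 2 and 3. *Ier3* was higher by 0.06 and 0.22, *Fosb* by 0.20 and 0.04, and *Fosl2* by 0.0011 and 0.13.

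Directions were opposite in the numbers for the other 4 members. *Fos* was lower in PDGFRα reporter+ by -0.41 in number 2 and higher by 0.16 in number 3, and *Fosl1* by -0.60 and 0.02. *Jun* went from 0.10 in number 2 to -0.14 in number 3, and *Junb* from 0.05 to -0.10. The mean differences of these 4 genes were -0.12 (SE 0.84), -0.29 (SE 0.45), -0.02 (SE 0.45) and -0.03 (SE 0.52), in a fit whose SE takes in the difference between the numbers. With the number as a block, the SE was 0.18, 0.17, 0.12 and 0.12, and the difference of *Fosl1* was then larger than its SE but did not pass (limma adjusted p = 0.994).

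**Figure D3:**
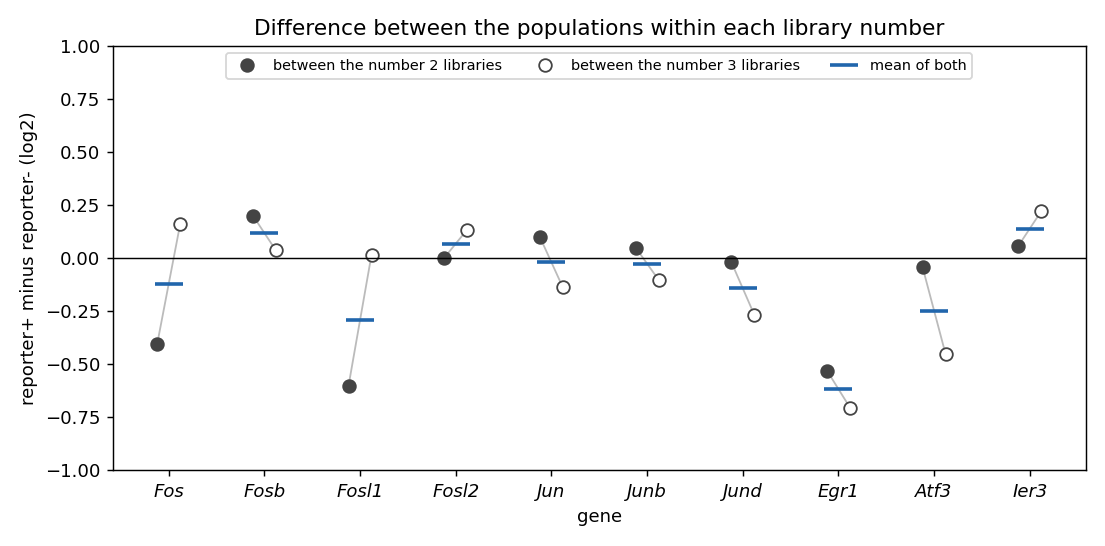
Log2 difference of PDGFRα reporter+ from PDGFRα reporter- (vertical axis) for the 10 genes (horizontal axis), between the number 2 libraries (filled), between the number 3 libraries (open) and on average (blue bar). *Egr1* has the lowest mean, with -0.53 in number 2 and -0.70 in number 3, and the other means lie between -0.29 and 0.14.

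When the library number was kept as a block, 29 genes (0.201% of all genes tested) passed the test between the populations, and 0 of them was a member. At an unadjusted p under 0.05 there were 913 genes by this fit, 1 of them a member, *Egr1*. It was the nearest to the threshold, with a log2 difference of -0.62 (SE 0.13, limma adjusted p = 0.146), and the other 9 had adjusted p-values of 0.994 or more. Of the AP-1 targets, *Mmp3* (2.01, adjusted p = 0.00341) and *Mmp13* (1.19, adjusted p = 0.0101) were higher and *Ccnd1*, a cyclin that drives entry into the cell cycle, was lower (-0.90, adjusted p = 0.0437) in PDGFRα reporter+ by this fit of limma, and *Mmp9* (1.75, adjusted p = 0.0585) was not past the threshold. Without the block, or with the block but without a variance trend, 0 genes passed, so that these calls were lost. Of the ERK feedback genes, 10 of 10 were lower on average in PDGFRα reporter+ (50.9% of all genes tested; median log2 difference -0.40), 5 of 10 were lower in both numbers (24.8% of all genes tested), and 0 passed with or without the block. In the list of other immediate early genes, *Nr4a1* (-0.61), *Btg2* (-0.53) and *Klf4* (-0.45) had the largest mean differences where the mean level was 0 or more, and none passed either fit. *Nr4a1* was lower in PDGFRα reporter+ in number 2 (-1.80) and higher in number 3 (0.59). By the same rule the ERK feedback list gave *Dusp4* (-0.58), *Dusp5* (-0.46) and *Spry4* (-0.45), and the heat shock list *Hspb1* (-0.54), *Hspa1b* (-0.49) and *Hspa1a* (-0.43). It gave *Maff* (-0.30) and *Jdp2* (0.22) among the other bZIP genes and *Mkl2* (-0.24), *Crem* (0.18) and *Rps6ka3* (0.17) among upstream factors and kinases, again with none past the threshold. *Dusp5* (0.01 and -0.93), *Maff* (-0.71 and 0.12), *Crem* (-0.58 and 0.95) and *Rps6ka3* (-0.12 and 0.47) also had opposite directions in numbers 2 and 3. The macrophage marker list was higher on average in PDGFRα reporter+ for 11 of 11 measured genes (median log2 difference 0.99, 2 past the threshold with the block), among them *C1qb* (1.48), *Adgre1* (1.13) and *C1qa* (1.13). The smooth muscle list was lower on average for 5 of 5 (median -1.27, 0 past it), with *Acta2* at -1.27 and *Tagln* at -1.17. The endothelial list was lower for 6 of 7 (median -1.82, 0 past it), with *Cdh5* at -4.26, *Emcn* at -3.44 and *Pecam1* at -3.19. These named genes had negative log2 values in every library and were named without the rule on mean level. *Cdh5*, for example, had -4.75 and -6.40 in PDGFRα reporter+ against -1.97 and -0.67 in PDGFRα reporter-. The populations did not overlap for 7 of the 11 macrophage markers, all higher in PDGFRα reporter+ (7.59% of all genes tested). Nor did they overlap for 2 of 5 smooth muscle and 4 of 7 endothelial markers, all lower in PDGFRα reporter+ (8.1% of all genes tested). Of the 10 stromal markers, *Lum*, a small proteoglycan, was higher with the block (1.83, limma adjusted p = 0.0121), and *Dcn* (1.39) and *Postn* (-1.14) did not pass. Their part in the members' values was not tested.

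*Ccdc85b* overlaps *Fosl1* and *Prdx2* overlaps *Junb* on the opposite strand, and whether reads were counted by strand is not given in the sources used here. *Prdx2* had values between 6.42 and 6.51 in the 4 libraries, a far smaller spread than that of *Junb*. *Ccdc85b* had values of 3.18 and 2.99 in number 2 and of 2.31 and 2.65 in number 3, so that it was ordered by number like *Fosl1*. *Jun*, *Jund* and *Atf3* overlap noncoding genes that had no value in any library.

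Genes of the most similar pattern were sought by the Euclidean distance of the 4 log2 values, each centred on its mean, over 10224 genes with a mean of at least 0. Nearest to *Fos* were *Hacd4* (distance 0.18), *Fbln5* (0.29) and *Fbxl2* (0.29). Nearest to *Fosl1* were *Ckb* (0.08), *Dusp14* (0.14) and *Lrp11* (0.16). Nearest to *Egr1* were *Itga3* (0.19), *Nqo1* (0.27) and *Ociad2* (0.29). None of these 9 genes is in the lists above. *Itga3*, an integrin subunit, had for example 2.72 and 3.14 in number 2 and 0.77 and 1.41 in number 3, the same order as *Egr1*.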

How the data were processed

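Total RNA libraries were prepared by a stranded paired-end protocol and sequenced on an Illumina NextSeq instrument. Per the labels' processing notes the authors used bcl2fastq 2.17.1.14, Partek 7.0 and GRCm38.p6. The deposited values are log2 expression values made by the authors, 1 per symbol and library, quantile-normalized, with a blank where no signal was found (lowest value -10.07 and highest 11.73 in each library, 15423 to 15605 values per library). The linear unit, the aligner and the counting are not given in the sources used here, so that depth and counting error are unknown. Levels of different members were not compared, and marker sums, which add genes in this unstated unit, serve only to compare libraries.

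Columns were assigned to a population by their heading and are named by its number, 2 or 3, since the labels number the replicates 1 and 2. Where libraries are not from separate animals, p-values measure only the spread between these libraries. The 14415 genes with 4 values were fitted with limma 3.58.1 in R 4.3.3 (two-sided, with a variance trend, Benjamini-Hochberg adjustment and a threshold of 0.05) for population, and for number with population as a term. Whether the variance trend, on which the calls rest, suits these libraries was not tested. Members and lists were chosen with earlier results of these data known. Named are all members, of each other list up to 3 genes with the largest population difference (mean of at least 0), and the nearest genes to *Fos*, *Fosl1* and *Egr1*; others named were chosen after their values were seen. A gene that this rule also names is not reported here. Positions are from GENCODE M21 and sequences from RefSeq. Python 3.11.15, pandas 2.3.3 and matplotlib 3.10.9 were used.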

Additional observations from a re-analysis of the deposited data

Results flagged for a closer look

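For 4 members the populations differed in opposite directions in the 2 library numbers. The difference of PDGFRα reporter+ from PDGFRα reporter- in number 3, less that in number 2, was 0.56 on the log2 scale for *Fos*, 0.62 for *Fosl1*, -0.24 for *Jun* and -0.15 for *Junb*. Each rests on 1 library per population and number, and the difference was not tested.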

How the results depend on the processing

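With the library number as a replicate block, 29 genes passed the test between the populations in place of 0 (913 and 131 at an unadjusted p under 0.05), and 0 members did in either fit. With the block but without a variance trend, 0 genes passed. The deviations of same-numbered libraries from their population's mean had a correlation of 0.68 over 14415 genes, a hint from the data and not from the labels, since only the number is shared. Between the numbers, 3065 genes passed, against 1825 with a pseudocount of 1 and 0 without a variance trend. Without a trend, 0 of the 10 members passed in place of 8, with the same differences and adjusted p-values from 0.0545 (*Egr1*) to 0.150 (*Fosl1*) for those 8; the cause was not tested. *Fosl1* also missed the threshold with a pseudocount of 1 (adjusted p = 0.0589) and without population as a term (0.0561), so that 7 members passed there. Direction between the numbers was kept by every member under each alternative run on it, the filter at a mean of 0 leaving out *Fosb* and *Atf3*. That direction could not change, since both number 3 libraries lay below both number 2 libraries for every member. Leaving out 1 library in turn left no residual degrees of freedom for the number, and the values had no test: they ranged from -2.01 to -1.44 for *Fos*, from -2.09 to -1.92 for *Egr1* and from -1.14 to -0.52 for *Fosl1*. Between the populations, 18 of 40 such values changed sign. These fits had no term for the number, so that leaving out 1 library mixed part of the number difference into the values. They therefore do not show how stable the population difference is within a number. The log2 differences ranged from -1.13 to 0.88 (*Fos*), -0.27 to 0.50 (*Fosb*), -0.86 to 0.28 (*Fosl1*), -0.48 to 0.62 (*Fosl2*), -0.53 to 0.49 (*Jun*), -0.59 to 0.54 (*Junb*), -0.35 to 0.067 (*Jund*), -1.66 to 0.43 (*Egr1*), -0.99 to 0.49 (*Atf3*) and -0.72 to 1.00 (*Ier3*). The other 68 values between the populations kept their direction and their side of the threshold. Only the pseudocount and a centring of the libraries on their medians alter the difference itself. Under the remaining settings the direction could not change. Since depth is unknown, no counting error or detection limit can be given for the low values of *Fosb* and *Atf3*.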
